A study of Mus musculus with 10 samples.

Results

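The genes described here are the secreted Wnt ligands, their Frizzled receptors and the secreted inhibitors of the Sfrp and Dkk families in the hippocampus of Tg(Dyrk1a) and wild-type mice. They were chosen by symbol alone, as every gene whose single platform symbol begins with Wnt, Fzd, Sfrp or Dkk followed by a digit, and 38 of 19938 measured genes met this rule. There were 19 Wnt ligands, 11 genes of the Frizzled family, 4 Sfrp genes and 4 Dkk genes. One of the 11, Fzd10os, is a non-coding RNA gene beside Fzd10 that shares only the start of the symbol, so that 37 members encode proteins of the families.

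The Tg(Dyrk1a) group held 5 mice with a transgene made from a bacterial artificial chromosome, which adds 1 copy of Dyrk1a, a dual-specificity kinase gene of the Down syndrome region, to an otherwise disomic genome. The wild-type group held 5 littermates without it. All 10 mice were males of 16 weeks, labelled as C57BL/6N, whereas the study's methods place the line on C57BL/6J. The right and left hippocampus of each mouse gave the RNA for 1 array, so the arrays of a group are separate animals. The transgene is present in all cells of the mouse and from conception, so an effect in the adult hippocampus and an effect carried over from development cannot be told apart. Values are log2 array signals after robust multi-array average (RMA) processing, and a log2 fold change of 1 is a doubling. The signal of a gene also depends on how well its probes bind, so levels are compared between mice for 1 gene, and the order of signals among genes was used only to choose the members shown in full.

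Wnt ligands are lipid-modified secreted proteins that bind a Frizzled receptor together with a co-receptor, either Lrp5 and Lrp6 in the beta-catenin branch or Ror and Ryk proteins in the branches that act on the cytoskeleton. Without a ligand, a destruction complex that holds Axin, Apc and the kinase Gsk3 marks beta-catenin for degradation. With a ligand, beta-catenin accumulates and acts with Tcf and Lef factors on target genes. Sfrp proteins resemble the ligand-binding part of Frizzled and bind Wnt ligands outside the cell, whereas most Dkk proteins bind the Lrp5 and Lrp6 co-receptors. In the hippocampus this system is known for its part in patterning the embryonic hippocampal field, in adult neurogenesis of the dentate gyrus and in synapse formation.

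The array medians lay between 6.57 and 6.66. Dyrk1a, the gene in excess, stood at 11.65, 11.62, 11.67, 11.65 and 11.68 in the Tg(Dyrk1a) mice, against 11.28, 11.15, 11.14, 11.19 and 11.15 in the wild-type mice. The difference of 0.47 on the log2 scale passed the limma test (adjusted p = 0.000138), and every array matched its label. Another transcript cluster of Dyrk1a had a smaller log2 fold change of 0.16 (limma adjusted p = 0.947), and its groups did not overlap either. All 12 markers of hippocampal neurons were measured, none with a mean below 8.82. A score of choroid plexus transcripts, the tissue that lines the ventricles beside the hippocampus, was over 0.5 on 3 arrays, at 1.08 and 0.75 in Tg(Dyrk1a) replicates 2 and 4 and at 1.09 in wild type replicate 5, and between -0.68 and 0.03 on the others. These 3 arrays stood apart, and for several of the results that move with them the values without them are given as well. Fewer cells of a type and less RNA per cell cannot be told apart in whole tissue.

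No Wnt, Frizzled, Sfrp or Dkk gene differed between the genotypes past the limma threshold of an adjusted p under 0.05, which 0.00854% of the 23410 transcript clusters tested passed. The groups of 5 overlapped for every one of the 38 members, whereas 0.807% of all transcript clusters had groups that did not overlap. At an unadjusted limma p under 0.05, which 4.93% of all transcript clusters met, there were 3 members or 7.89%. Wnt5a was the one with the higher mean in Tg(Dyrk1a) mice, in a direction that 2.99% of all transcript clusters took, and Wnt5b and Wnt7a were those with the lower mean, in a direction that 1.94% took. FCROS, the rank method that the study's methods name, counted 4.83% of all transcript clusters and 5 members, which were Wnt5a on the higher side (2.72% of all transcript clusters) and Wnt5b, Wnt7a, Wnt10b and Fzd2 on the lower side (2.11%). As computed here, its f-values are scaled to the mean and SD of the ranks over all transcript clusters. That scaling largely sets the share counted, so the count is not comparable with that of an adjusted p.

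The fold changes of the members were small, and more of them lay below 0 than above it. The log2 fold change was below 0 for 30 of the 38 members (78.9%), against 49.1% of all transcript clusters. The median over the members was -0.04, in a range of -0.18 to 0.16, against 0.00 over all transcript clusters. A member's 95% interval lay wholly within 0.25 of 0 on the log2 scale, which is a 1.19-fold change, for 31 of the 38. For these genes a difference of that size or more lay outside the interval, on the compressed scale of RMA values. The median deviation of the members on an array had a within-group SD of 0.0411, beside the members' median fold change of -0.0352. This SD is the spread of single mice and not the error of a difference between groups, and the shift itself was not tested. After quantile normalization 29 members lay below 0 and after median centring 28 did, where 49.6% and 36.4% of all transcript clusters lay below 0. The members' median was then -0.022 and -0.020, against 0.00044 and 0.016 over all transcript clusters.

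**Figure D1:**
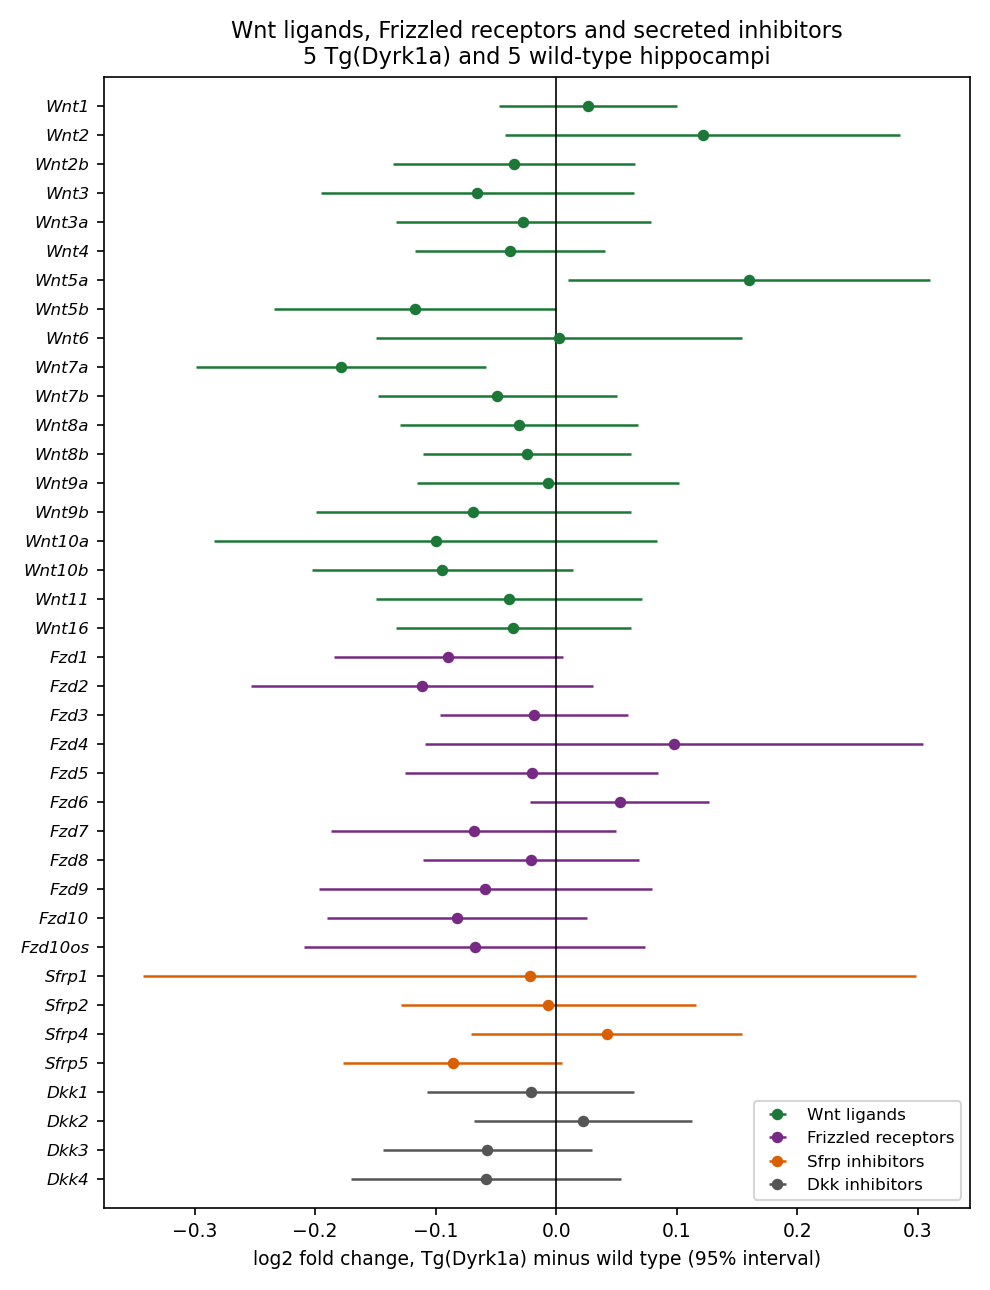
Log2 difference of Tg(Dyrk1a) minus wild type for each of the 38 members with its limma 95% interval, coloured by family, from 5 Tg(Dyrk1a) and 5 wild-type mice. The values run between -0.18 for Wnt7a and 0.16 for Wnt5a, and the interval of Sfrp1, from -0.34 to 0.30, is the widest.

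Among the ligands, Wnt7a had the lowest fold change and the smallest p of the 38 members. Wnt7a is a ligand known in the mouse brain for axon remodelling and presynaptic assembly and, with Wnt7b, for the growth of vessels into the neural tube. Its transcript cluster (10546339) covers a gene on chromosome 6 (GRCm38.p6, chr6:91363981-91411353). Wnt7a stood at 6.95, 6.75, 7.00, 6.80 and 6.95 in Tg(Dyrk1a) mice, against 7.10, 7.10, 6.96, 7.18 and 7.01 in wild-type mice. All 5 Tg(Dyrk1a) arrays lay below the wild-type mean, and the groups overlapped only in that wild type replicate 3 was below Tg(Dyrk1a) replicate 3. The means were 6.89 ± 0.11 in Tg(Dyrk1a) and 7.07 ± 0.09 in wild-type mice (SD, n = 5 each). The log2 fold change was -0.18 ± 0.06 (SE), with a 95% interval of -0.30 to -0.06 and a limma adjusted p of 0.947. The exact permutation test of this single gene gave p = 0.0159, unadjusted for the number of genes. The 2 lowest Tg(Dyrk1a) arrays were replicates 2 and 4, which are rich in choroid plexus transcripts. Without the 3 such arrays the log2 fold change of Wnt7a was -0.12 (limma adjusted p = 0.878), and with 3 marker scores (choroid plexus, meninges, thalamus) in the model it was -0.25 (limma adjusted p = 0.997).

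The promoter window of Wnt7a is shown because it is the ligand with the smallest p and because GC boxes, the binding motif of Sp factors, were common in the windows of the members. RefSeq windows of 300 bases (250 before to 50 after a start site) were at hand for 25 of the 38 members, with 28 windows in all. The GC box GGGCGG, searched on both strands, was in 21 of the 28 (75%), against 35.7% of 32851 windows of all genes. The median GC content of the members' windows was 68.7%, against 52.7% for all windows. The Wnt7a window (GRCm38.p6, chr6:91411304-91411603, minus strand) has a GC content of 76% and 6 matches, in capitals, of which one is on the opposite strand and reads CCGCCC.
Wnt7a: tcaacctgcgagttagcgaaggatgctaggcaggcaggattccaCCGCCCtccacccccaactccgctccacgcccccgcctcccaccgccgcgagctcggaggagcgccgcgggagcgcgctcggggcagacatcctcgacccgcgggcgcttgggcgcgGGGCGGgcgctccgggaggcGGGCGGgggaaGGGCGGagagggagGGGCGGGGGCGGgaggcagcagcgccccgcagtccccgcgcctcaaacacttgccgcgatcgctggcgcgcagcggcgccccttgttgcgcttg
The match of a motif is a description of the letters and no evidence of binding.

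Wnt5a had the highest fold change of the members. It is the best known ligand of the branch that signals through Ror2 to the cytoskeleton and polarity of the cell, and its transcript cluster (10413482) covers a gene at chr14:28504543-28527448. Wnt5a stood at 6.84, 6.95, 6.91, 6.79 and 7.00 in Tg(Dyrk1a) mice, against 6.61, 6.67, 6.59, 6.89 and 6.92 in wild-type mice. The Tg(Dyrk1a) arrays lay close together, while the wild-type arrays fell into 3 low ones (replicates 1, 2 and 3) and a pair inside the Tg(Dyrk1a) range. The log2 fold change was 0.16 ± 0.07 (SE), with a 95% interval of 0.01 to 0.31, a limma adjusted p of 0.947 and an exact permutation p of 0.0952. The 3 low wild-type arrays also had the 3 lowest scores of meninges and fibroblast markers, at -0.14, -0.20 and -0.23. That list had 17 of 17 genes measured, and 16 had a fold change above 0, where 49.1% of all transcript clusters lay below 0. In it 4 genes had an unadjusted limma p under 0.05, all higher in Tg(Dyrk1a) mice, against 2.99% of all transcript clusters. The score of the list ran from -0.10 to 0.24 in Tg(Dyrk1a) mice and from -0.23 to 0.08 in wild-type mice, and its dimmest gene was Lum with a mean of 5.78. With the 3 marker scores in the model the log2 fold change of Wnt5a was 0.04 (limma adjusted p = 0.997), and without the 3 choroid plexus rich arrays it was 0.22 (limma adjusted p = 0.878). The part of meninges and fibroblasts in the values of Wnt5a was not tested.

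Wnt5b, the close paralogue of Wnt5a, had its mean on the other side. Its transcript cluster (10547396) covers a gene at chr6:119432531-119544824. Wnt5b stood at 6.78, 6.51, 6.58, 6.66 and 6.72 in Tg(Dyrk1a) mice, against 6.73, 6.85, 6.84, 6.75 and 6.66 in wild-type mice. The lowest 2 arrays were Tg(Dyrk1a) replicates 2 and 3 and the highest 2 were wild type replicates 2 and 3, and the groups overlapped between 6.66 and 6.78. The log2 fold change was -0.12 ± 0.05 (SE), with a limma adjusted p of 0.947 and an exact permutation p of 0.0873. Without Tg(Dyrk1a) replicate 2 the log2 fold change of Wnt5b was -0.08, and with the 3 marker scores in the model it was -0.02.

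Wnt5b is shown as well because 1 of its 3 RefSeq windows holds the core letters of a Tcf and Lef site, the motif through which beta-catenin acts. CTTTGAT, searched on both strands, was in 2 of the 28 members' windows (7.14%), those of Wnt5b and Wnt11, against 3.73% of all windows. The Wnt5b window lies at chr6:119449337-119449636 (GRCm38.p6, minus strand), with the match in capitals.
Wnt5b: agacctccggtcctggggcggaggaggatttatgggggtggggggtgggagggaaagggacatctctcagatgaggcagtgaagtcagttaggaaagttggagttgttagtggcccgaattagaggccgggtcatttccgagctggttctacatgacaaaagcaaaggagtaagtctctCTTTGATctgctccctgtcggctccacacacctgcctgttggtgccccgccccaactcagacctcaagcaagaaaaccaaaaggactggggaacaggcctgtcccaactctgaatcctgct

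**Figure D2:**
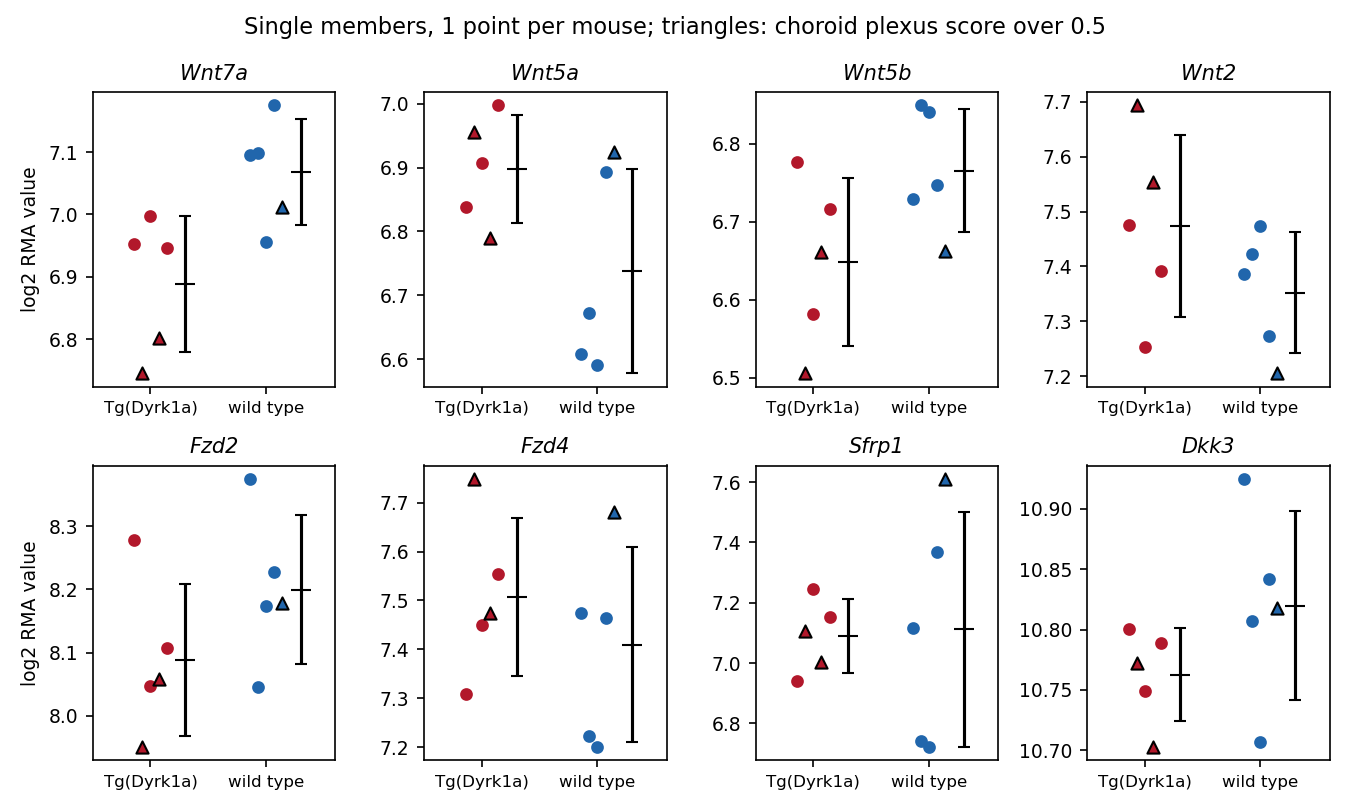
Log2 RMA values of 8 members, 1 point per mouse, with mean and SD of the 5 mice of a genotype to the right of the points and triangles for the 3 arrays rich in choroid plexus transcripts. The genotypes overlap in every panel, and Wnt7a, at a mean of 6.89 in Tg(Dyrk1a) and 7.07 in wild-type mice, is the member nearest to separate groups.

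The ligands with the highest array signal were Wnt4, Wnt10a and Wnt7b. Wnt4, known for kidney and female gonad development, stood at 7.78, 7.80, 7.85, 7.92 and 7.87 in Tg(Dyrk1a) mice, against 7.88, 7.83, 7.92, 7.85 and 7.95 in wild-type mice. The ranges overlapped over most of their length. The log2 fold change was -0.04 ± 0.04 (SE), and another transcript cluster of Wnt4 had -0.06. Wnt10a, a ligand of tooth and skin appendage development, stood at 7.82, 7.43, 7.93, 7.79 and 7.64 in Tg(Dyrk1a) mice, against 7.98, 7.80, 7.77, 7.91 and 7.67 in wild-type mice. Tg(Dyrk1a) replicate 2 was the lowest by a clear gap, and the log2 fold change was -0.10 ± 0.08 (SE), or -0.03 without that array. Wnt7b stood at 7.82, 7.63, 7.72, 7.58 and 7.65 in Tg(Dyrk1a) mice, against 7.72, 7.77, 7.64, 7.77 and 7.75 in wild-type mice. Its highest and lowest arrays were both Tg(Dyrk1a), the log2 fold change was -0.05 ± 0.05 (SE), and it was 0.01 without the 3 choroid plexus rich arrays.

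The remaining 13 ligands had log2 fold changes between -0.09 and 0.12, none with an unadjusted p under 0.05. Wnt2 was highest among them at 0.12 ± 0.08 (SE). Its 2 highest arrays were Tg(Dyrk1a) replicates 2 and 4, at 7.69 and 7.55, its lowest was wild type replicate 5, at 7.21, without these 3 arrays its fold change was -0.01, and with the 3 marker scores in the model it was 0.18 (limma adjusted p = 0.997). Wnt10b, which in mice restrains adipocyte formation and favours bone, was lowest at -0.09 ± 0.05 (SE). Wnt3a, whose loss in the mouse embryo leaves the hippocampus unformed, was at -0.03, and its neighbour Wnt9a at -0.01. Wnt8b, a marker of the embryonic cortical hem and hippocampal field, was at -0.02, and its relative Wnt8a at -0.03. Wnt1, the ligand of the midbrain and hindbrain boundary, was at 0.03 and Wnt6 at 0.00. Wnt3 and Wnt9b were both at -0.07, Wnt11 and Wnt16 both at -0.04, and Wnt2b at -0.03. In total 15 of the 19 ligands lay below 0, with a family median of -0.04, and median centring made that 14.

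Several ligand genes are neighbours in the genome, and neighbours did not share a sign throughout. Wnt6 and Wnt10a, 6.70 kb apart on chromosome 1, had 0.00 and -0.10. Wnt10b and Wnt1, 11.7 kb apart on chromosome 15, had -0.09 and 0.03. Wnt3a and Wnt9a, 16.1 kb apart on chromosome 11, had -0.03 and -0.01. The gene models of Wnt9b and Wnt3 overlap on the same chromosome, and both genes had -0.07. Whether their signals share transcripts was not tested.

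No Frizzled gene reached an unadjusted p under 0.05. Of the 11, counting the non-coding Fzd10os, 9 had fold changes below 0, Fzd10os among them, and the median of the 11 was -0.06. Fzd2, which with Fzd1 and Fzd7 forms one close group of receptors, had the lowest. Fzd2 stood at 8.28, 7.95, 8.05, 8.06 and 8.11 in Tg(Dyrk1a) mice, against 8.37, 8.05, 8.17, 8.23 and 8.18 in wild-type mice. Replicate 1 was the highest array in each genotype, the ranges overlapped between 8.05 and 8.28, and the log2 fold change was -0.11 ± 0.07 (SE). Fzd1 stood at 8.30, 8.24, 8.38, 8.19 and 8.22 in Tg(Dyrk1a) mice, against 8.41, 8.28, 8.35, 8.44 and 8.30 in wild-type mice. Its 3 lowest arrays were all Tg(Dyrk1a), with Tg(Dyrk1a) replicate 3 among the high ones, and its log2 fold change was -0.09 ± 0.04 (SE, exact permutation p = 0.0794). Fzd7, the third of this group, was at -0.07 ± 0.05 (SE).

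Fzd4 and Fzd6 were the receptors with fold changes above 0. Fzd4 is the receptor that also binds Norrin, and it is known for vessel growth in the retina and for the blood-brain barrier. Fzd4 stood at 7.31, 7.75, 7.45, 7.47 and 7.55 in Tg(Dyrk1a) mice, against 7.47, 7.22, 7.20, 7.46 and 7.68 in wild-type mice. The highest 2 arrays were Tg(Dyrk1a) replicate 2 and wild type replicate 5, the lowest 2 were wild type replicates 2 and 3, and the log2 fold change was 0.10 ± 0.10 (SE). Markers of endothelial and mural cells were measured for 15 of 16 genes, and 13 had fold changes above 0, where 49.1% of all transcript clusters lay below 0. Of the 15, 5 had an unadjusted limma p under 0.05 on the higher side, against 2.99% of all transcript clusters. The score of these markers ran from 0.01 to 0.09 in Tg(Dyrk1a) mice and from -0.17 to 0.02 in wild-type mice, and none of them was dim. The 5 were genes of mural cells (Acta2, Tagln, Myl9, Vtn and Rgs5), named after their values were seen, and none of the endothelial markers was among them. Other mural genes of the list, Pdgfrb, Kcnj8 and Abcc9, were not among them either, at -0.005, 0.03 and 0.07. The part of these cells in the values of Fzd4 was not tested, and their score was in no model. With the 3 marker scores of choroid plexus, meninges and thalamus in the model Fzd4 was at -0.06. Fzd6, known in mice for the orientation of hair follicles, had all 5 Tg(Dyrk1a) arrays above the wild-type mean, at 7.32 to 7.40 in Tg(Dyrk1a) and 7.26 to 7.36 in wild-type mice. Its log2 fold change was 0.05 ± 0.03 (SE, exact permutation p = 0.119).

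Fzd3, the Frizzled gene with the highest array signal, guides axons and sets tissue polarity. Fzd3 stood at 9.23, 9.32, 9.38, 9.30 and 9.35 in Tg(Dyrk1a) mice, against 9.40, 9.35, 9.28, 9.32 and 9.32 in wild-type mice. The ranges were nearly the same, and the log2 fold change was -0.02 ± 0.04 (SE). Fzd5 and Fzd8, a close pair of receptors, were both at -0.02. Fzd9, a receptor known from the mouse dentate gyrus, was at -0.06, and Fzd10 at -0.08. Fzd10os, whose gene model lies 0.419 kb from Fzd10, was at -0.07.

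Of the Sfrp inhibitors, Sfrp1 had the largest SD among wild-type mice of all 38 members, and none of the 4 differed past the threshold. Sfrp1 stood at 6.94, 7.11, 7.25, 7.00 and 7.15 in Tg(Dyrk1a) mice, against 7.12, 6.74, 6.72, 7.37 and 7.61 in wild-type mice. All Tg(Dyrk1a) values lay inside the wild-type range, with SDs of 0.12 in Tg(Dyrk1a) and 0.39 in wild-type mice. The log2 fold change was -0.02 ± 0.15 (SE), and its 95% interval of -0.34 to 0.30 leaves room for a 1.19-fold change in either direction. Wild type replicate 5, the highest array, also had the highest score of thalamus and habenula markers (0.43, against -0.15 to 0.07 on the other wild-type arrays and -0.11 to 0.01 on the Tg(Dyrk1a) arrays). Of the 12 markers on that list, all measured, 4 had fold changes above 0, and the dimmest was Gpr151 with a mean of 5.17. At an unadjusted limma p under 0.05 there was 1 on the higher side (Tac2) and 1 on the lower side (Ramp3). The shares of all transcript clusters were 2.99% and 1.94%. Without wild type replicate 5 Sfrp1 was at 0.10, and with the 3 marker scores in the model it was at -0.28 (limma adjusted p = 0.997).

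The other Sfrp genes were dim, with means below 5.91, the 95th percentile of 1035 transcript clusters of olfactory receptors, which are mostly silent in brain. A small difference of such a transcript may not be visible. Sfrp5 stood at 5.64, 5.68, 5.76, 5.66 and 5.74 in Tg(Dyrk1a) mice, against 5.89, 5.69, 5.72, 5.82 and 5.77 in wild-type mice. All 5 Tg(Dyrk1a) arrays lay below the wild-type mean of 5.78, with a log2 fold change of -0.09 ± 0.04 (SE, exact permutation p = 0.0794). Sfrp2 stood at 5.96, 5.85, 5.92, 5.71 and 6.00 in Tg(Dyrk1a) mice, against 6.00, 5.80, 5.96, 5.85 and 5.85 in wild-type mice. Its groups overlapped almost fully, with a log2 fold change of -0.01 ± 0.06 (SE) that turned to 0.01 after quantile normalization or median centring. Sfrp4 stood at 5.55, 5.59, 5.51, 5.71 and 5.54 in Tg(Dyrk1a) mice, against 5.56, 5.58, 5.51, 5.65 and 5.38 in wild-type mice. Tg(Dyrk1a) replicate 4 was its highest array and wild type replicate 5 its lowest, with a log2 fold change of 0.04 ± 0.05 (SE). Among all members 7 had means below that percentile, the others being Wnt8b, Wnt16, Fzd10os and Dkk2.

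Among the Dkk genes, Dkk3 had the highest array signal of all 38 members. It is the divergent member of the family, which does not block Lrp5 and Lrp6 as Dkk1 does. Dkk3 stood at 10.80, 10.77, 10.75, 10.70 and 10.79 in Tg(Dyrk1a) mice, against 10.92, 10.81, 10.71, 10.84 and 10.82 in wild-type mice. All 5 Tg(Dyrk1a) arrays lay below the wild-type mean, wild type replicate 3 lay among them, and the log2 fold change was -0.06 ± 0.04 (SE, exact permutation p = 0.183). Dkk1, the Lrp5 and Lrp6 antagonist best known from head formation, stood at 6.49, 6.36, 6.45, 6.48 and 6.36 in Tg(Dyrk1a) mice, against 6.49, 6.43, 6.52, 6.43 and 6.37 in wild-type mice. Its ranges were nearly the same, with a log2 fold change of -0.02 ± 0.04 (SE). Dkk4 stood at 6.33, 6.13, 6.18, 6.20 and 6.09 in Tg(Dyrk1a) mice, against 6.36, 6.30, 6.24, 6.18 and 6.14 in wild-type mice. Replicate 1 was the highest array in each genotype, and the log2 fold change was -0.06 ± 0.05 (SE). Dkk2 stood at 5.93, 5.80, 5.97, 5.90 and 5.80 in Tg(Dyrk1a) mice, against 5.88, 5.85, 5.88, 5.90 and 5.77 in wild-type mice. Its highest array was Tg(Dyrk1a) replicate 3, the groups overlapped, and the log2 fold change was 0.02 ± 0.04 (SE).

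The members varied between mice in a way that followed single arrays. The median deviation of the 38 members was 0.05, -0.07, 0.01, -0.05 and -0.02 on the 5 Tg(Dyrk1a) arrays, against 0.06, 0.01, 0.02, 0.02 and -0.04 on the 5 wild-type arrays. The 3 lowest values belonged to the 3 arrays rich in choroid plexus transcripts, 2 of them Tg(Dyrk1a), while the median over all transcript clusters stayed within -0.01 to 0.01 on every array. Tg(Dyrk1a) replicate 2 was the lowest of the 10 arrays for 10 members (26.3%), against 16.1% of all transcript clusters. Tg(Dyrk1a) replicate 4 was the lowest for 9 members (23.7%), against 11.9%, and wild type replicate 1 was the highest for 11 (28.9%), against 16%. The 3 choroid plexus rich arrays were the 3 lowest for Wnt3a, Wnt8a, Wnt8b, Wnt9a and Fzd5 (13.2% of the members, against 2.76% of all transcript clusters), and the 3 highest for no member (against 2.45%). The choroid plexus list had 14 of 15 genes measured, of which 11 had a fold change above 0 and none an unadjusted p under 0.05, and its score ran from -0.68 to 1.08 in Tg(Dyrk1a) mice and from -0.52 to 1.09 in wild-type mice. Without these 3 arrays 26 of the 38 members lay below 0, where 48.8% of all transcript clusters did. The members' median was then -0.03, against 0.0016 over all transcript clusters. The part of choroid plexus tissue in the shift was not tested.

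**Figure D3:**
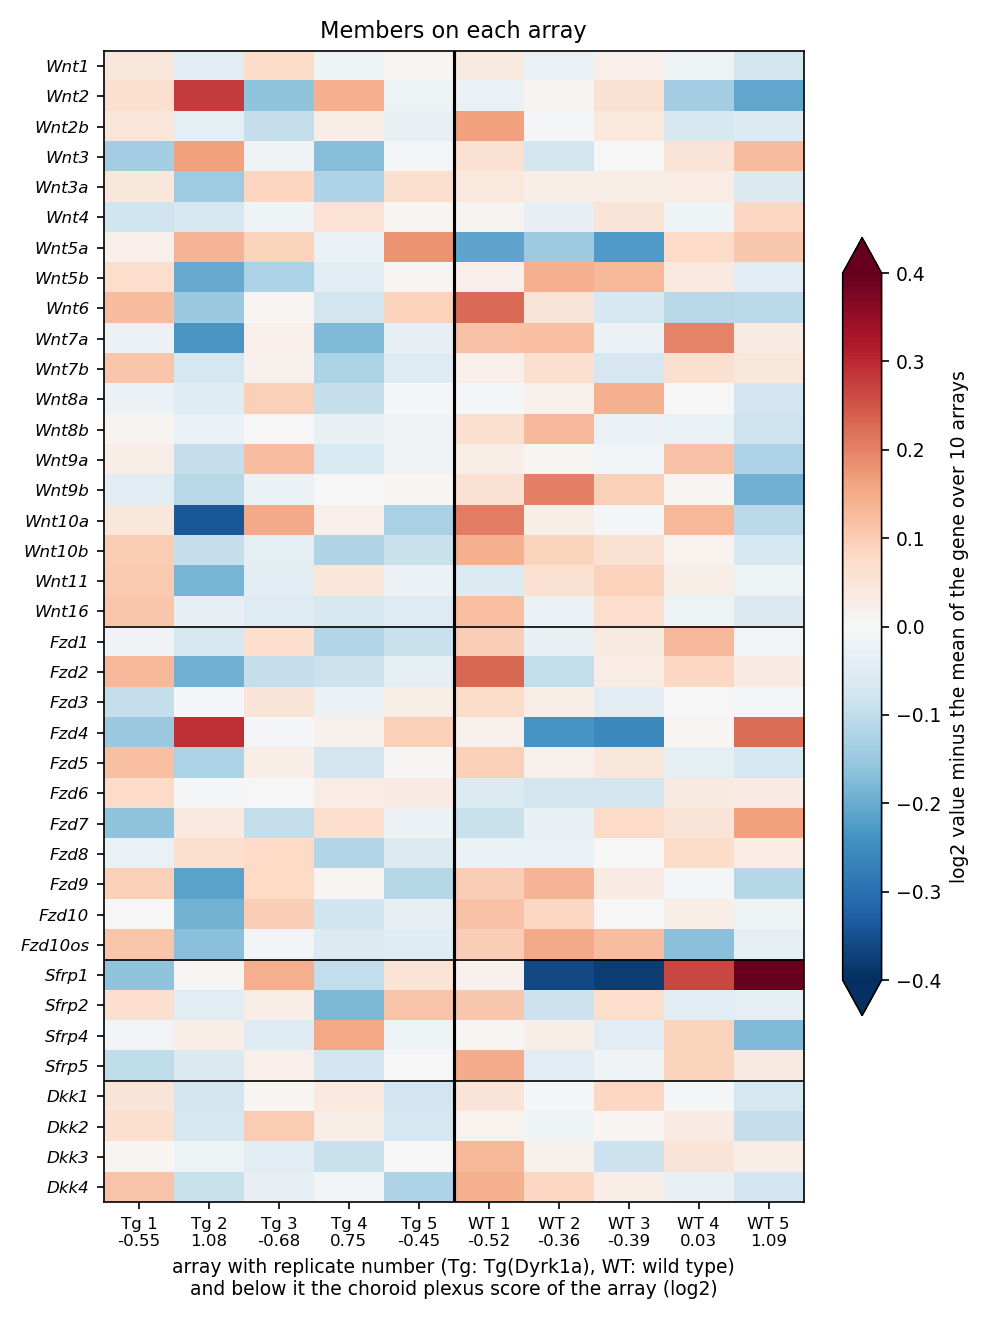
Deviation of each member from its own mean over the 10 arrays (log2, colour scale from -0.4 to 0.4), with Tg(Dyrk1a) arrays to the left and wild-type arrays to the right of the line and the choroid plexus score under each array. Blue dominates in Tg(Dyrk1a) replicates 2 and 4, whose median deviations are -0.07 and -0.05, and red in wild type replicate 1, at 0.06, while Sfrp1 varies most among wild-type mice.

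Genes of the pathway outside the 4 families were read from 8 lists of 79 genes, of which 78 were measured. None passed the limma threshold. At an unadjusted p under 0.05 there were 2 with a higher mean in Tg(Dyrk1a) mice (Frzb and Apcdd1) and 3 with a lower mean (Dkkl1, Lgr6 and Ccnd1), against 2.99% and 1.94% of all transcript clusters. In all, 44 of the 78 (56.4%) lay below 0, against 49.1% of all transcript clusters, and their median was -0.01. Porcn and Wls, which attach the lipid to Wnt ligands and carry them out of the cell, were at 0.02 and 0.03, and Notum, listed with them, which removes the lipid outside the cell, was at 0.03. The 6 co-receptors were split 3 and 3. R-spondins and their Lgr receptors keep Frizzled at the cell surface by restraining the ubiquitin ligases Znrf3 and Rnf43, which remove it, and of these genes 6 of 9 lay below 0, at a median of -0.03. Of the destruction complex and Dishevelled genes 16 of 20 lay below 0, at a median of -0.03. Of the nuclear effectors of beta-catenin 5 of 13 lay below 0 and of its textbook targets 9 of 13, at medians of 0.00 and -0.03. The planar cell polarity genes were split 6 and 6. FCROS counted 7 of the 78, of which 2 were higher and 5 lower in Tg(Dyrk1a) mice, against 2.72% and 2.11% of all transcript clusters.

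At the centre of the pathway, Gsk3b, the kinase of the destruction complex, stood at 10.76, 10.79, 10.81, 10.74 and 10.82 in Tg(Dyrk1a) mice, against 10.83, 10.83, 10.75, 10.83 and 10.86 in wild-type mice. The groups overlapped, with a log2 fold change of -0.04 ± 0.03 (SE). Ctnnb1, which encodes beta-catenin, stood at 11.52, 11.51, 11.51, 11.42 and 11.50 in Tg(Dyrk1a) mice, against 11.42, 11.50, 11.47, 11.49 and 11.51 in wild-type mice. Apart from 1 low array in each genotype the values lay within 11.47 to 11.52, and the log2 fold change was 0.01 ± 0.03 (SE) and -0.00337 after quantile normalization.

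Frzb, a relative of the Sfrp inhibitors whose symbol the rule does not cover, stood at 8.83, 8.74, 8.81, 8.72 and 9.02 in Tg(Dyrk1a) mice, against 8.43, 8.68, 8.36, 8.78 and 8.81 in wild-type mice. Its 3 lowest arrays were wild type replicates 1, 2 and 3, as for Wnt5a, and its log2 fold change was 0.21 ± 0.09 (SE, limma adjusted p = 0.947). Apcdd1, a membrane inhibitor that is itself a target of beta-catenin, stood at 8.77, 8.74, 8.76, 8.77 and 8.78 in Tg(Dyrk1a) mice, against 8.58, 8.77, 8.54, 8.69 and 8.73 in wild-type mice. The Tg(Dyrk1a) values were tight, only wild type replicate 2 reached them, and the log2 fold change was 0.11 ± 0.04 (SE, limma adjusted p = 0.947). Dkkl1, a Dkk-like gene first described in testis, stood at 6.59, 6.20, 6.64, 6.72 and 6.43 in Tg(Dyrk1a) mice, against 6.90, 6.86, 6.89, 6.76 and 6.72 in wild-type mice. Its groups met at 6.72 without overlapping, at a log2 fold change of -0.31 ± 0.08 (SE, limma adjusted p = 0.947) and with an exact permutation p of 0.00794, the smallest that 5 against 5 arrays can give.

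Ccnd1, the cyclin of the G1 phase and a textbook target of beta-catenin, stood at 9.30, 9.44, 9.22, 9.14 and 9.23 in Tg(Dyrk1a) mice, against 9.32, 9.43, 9.31, 9.54 and 9.56 in wild-type mice. Tg(Dyrk1a) replicate 2 was the array inside the wild-type range, and the log2 fold change was -0.16 ± 0.06 (SE, limma adjusted p = 0.947). Lgr6, a receptor for R-spondins, stood at 6.84, 6.90, 6.90, 6.91 and 6.90 in Tg(Dyrk1a) mice, against 7.06, 7.02, 6.98, 7.03 and 6.84 in wild-type mice. Wild type replicate 5 was the array that overlapped, with a log2 fold change of -0.09 ± 0.04 (SE, limma adjusted p = 0.947). The highest fold change on these lists, 0.59 ± 0.43 (SE), belonged to the antagonist Sostdc1, named after its values were seen, which stood at 9.33, 9.05 and 8.67 on the 3 choroid plexus rich arrays and between 7.06 and 7.46 on the others.

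**Figure D4:**
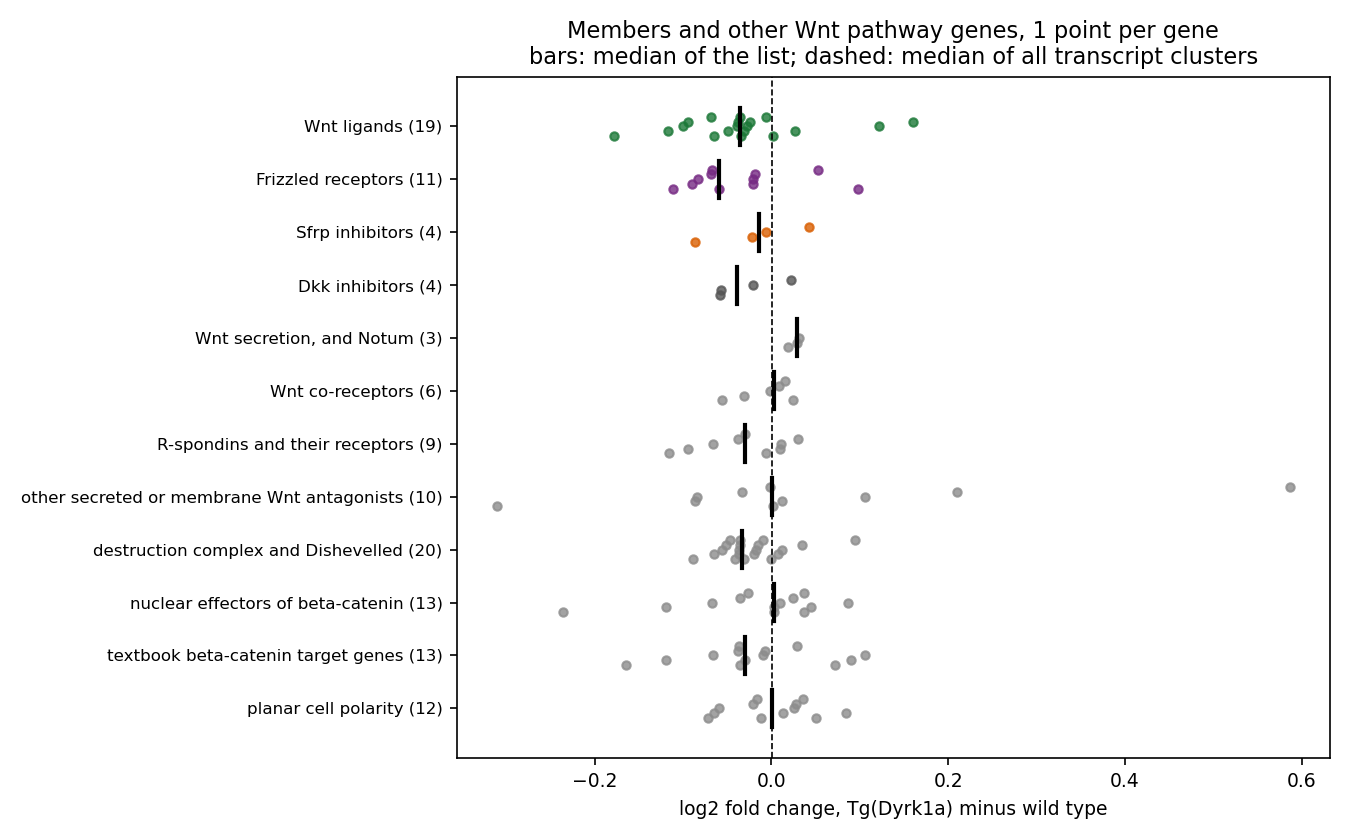
Log2 difference of Tg(Dyrk1a) minus wild type for each member by family and of other Wnt pathway genes by list, 1 point per gene, with the number of measured genes in brackets, the median of a list as a bar and the median of all transcript clusters as a dashed line. The medians lie between -0.06 for the Frizzled genes and 0.03 for the 3 genes of Wnt secretion and Notum, and the single points farthest out are Sostdc1 at 0.59 and Dkkl1 at -0.31.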

How the data were processed

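Hippocampal RNA of 10 male mice, 5 Tg(Dyrk1a) and 5 wild-type littermates, was labelled as biotinylated cDNA and hybridised to Affymetrix GeneChip Mouse Gene 1.0 ST arrays, 1 array per mouse. The deposited values are log2 signals that the authors made with RMA (robust multi-array average), which corrects background, equalises probe distributions between arrays and summarises the probes of a transcript cluster, and which compresses differences of dim transcripts. The submitters' processing notes name RMA, limma and build mm10. The set of arrays that entered 1 RMA run is not given in the sources used here.

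Of 35556 rows, 23410 had a gene annotation and were tested by lmFit and eBayes of limma (version 3.58.1, R 4.3.3) without a covariate, with Benjamini-Hochberg adjustment over all 23410 at a threshold of 0.05. Group means of single members were also compared by a two-sided exact permutation test, whose lowest possible p is 0.00794. FCROS, the rank method named in the study's methods, was rewritten from its description, trimming 25% of the ranks on either side, and f-values in the outer 0.025 of either side were counted. The columns of the value table all belonged to the 10 arrays. No replicate numbers were used to pair mice. The number of arrays limits the precision, and the values carry no detection call.

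A member is a gene whose single platform symbol begins with Wnt, Fzd, Sfrp or Dkk and a digit, and of several transcript clusters of a gene the one with the highest mean was taken. Every member was named. Values of all arrays are given for members with an unadjusted p under 0.05, for the highest and lowest fold change of each family and for the 3 highest means of each family. Outside the families these are given for Dyrk1a, Gsk3b, Ctnnb1 and pathway genes with an unadjusted p under 0.05. A marker score is the mean, over the genes of a list, of the log2 value minus the mean of that gene over the 10 arrays. Members, gene lists and alternatives were chosen with earlier results of these data known. Gene positions and promoter windows came from RefSeq for GRCm38.p6, the patch release of mm10. The limma test alone, and not the full fitting script, was run on simulated data with changes of known size.

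Results were recomputed after median centring or quantile normalization, without the dimmest 30% of transcript clusters, with every row tested, with array weights, with a robust fit and variance trend, with the replicate number as a block, by FCROS, with the mean over a gene's transcript clusters, without each single array, without the 3 arrays rich in choroid plexus transcripts, and with marker scores (choroid plexus alone, or together with meninges and thalamus) in the model.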

Additional observations from a re-analysis of the deposited data

Results flagged for a closer look

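Single arrays far from the other 4 of their genotype were found in 5 of 92 groups of 5 arrays tested (46 genes), and chance alone marks about 1 group in 20. Among the members, Wnt3a stood at 6.84 in wild type replicate 5, the lowest of its group, with the next array at 6.92, and Wnt16 stood at 5.89 in Tg(Dyrk1a) replicate 1, the highest of its group, with the next at 5.75. Outside the families, Lgr6 stood at 6.84 in Tg(Dyrk1a) replicate 1 (next 6.90), Ctnnb1 at 11.42 in Tg(Dyrk1a) replicate 4 (next 11.50) and Gsk3b at 10.75 in wild type replicate 3 (next 10.83), each the lowest of its group. Wild type replicate 5 and Tg(Dyrk1a) replicate 4 are among the arrays rich in choroid plexus transcripts, and the part of that tissue in these values was not tested.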

How the results depend on the processing

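No member passed the limma threshold under any alternative fitted with limma, which includes leaving out 1 array in turn (0 in each fit). FCROS, which does not use that threshold, counted 5 members, beside 4.83% of all transcript clusters. Members at an unadjusted p under 0.05, 3 as reported, were 1 when every row was tested (4.37% of all rows), 6 with 3 marker scores (choroid plexus, meninges, thalamus) in the model (4.51% of all transcript clusters), and 1 to 6 with 1 array left out (3.73% to 6.93%). The 6 were Wnt2, Wnt3, Wnt7a, Fzd1, Sfrp1 and Sfrp5, of which Wnt7a is 1 of the 3 reported. Wnt7a was at an unadjusted p under 0.05 in each of these limma fits, whereas Wnt5a and Wnt5b were not. The median of the members was -0.05 to -0.03 with 1 array left out. Transcript clusters past the threshold, 2 as reported, numbered 1 after median centring, with every row tested and with a variance trend and robust estimation. They also numbered 1 with the replicate block and without the 3 choroid plexus rich arrays. With array weights they numbered 5, and with 1 array left out 1 to 2. With the 3 marker scores in the model they numbered 0, where Dyrk1a was at 0.44 (limma adjusted p = 0.112). FCROS counted 1131, a number that its scaling largely sets. For replicates 1 to 5 the deviations of same-numbered mice had correlations of 0.28, 0.01, -0.11, -0.29 and -0.06. Of the 5 Tg(Dyrk1a) arrays, 1 (replicate 1) correlated best with its own number. These few values cannot settle whether the numbers pair the mice. The replicate block gave 4 members at an unadjusted limma p under 0.05 (5.1% of all transcript clusters) and 0 past the threshold.

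Log2 fold changes changed sign under some alternatives, most of them near 0 but also those of Wnt2 (0.12 as reported) and Fzd4 (0.10), and the cause was not tested. Without the 3 choroid plexus rich arrays Wnt2 was at -0.0149, Wnt3a at 0.0343, Wnt7b at 0.00569, Wnt9a at 0.0114, Fzd5 at 0.0203, Sfrp1 at 0.127, Sfrp2 at 0.0561 and Sfrp4 at -0.0433. With the 3 marker scores in the model Wnt2b was at 0.0186, Wnt11 at 0.0587, Wnt16 at 0.00985, Fzd4 at -0.0581, Fzd5 at 0.0335, Fzd10os at 0.0904, Sfrp4 at -0.00782, Dkk1 at 0.0215 and Dkk4 at 0.00319. With array weights Wnt3a was at 0.00514, Wnt9a at 0.00223, Sfrp1 at 0.0208 and Sfrp2 at 0.0423. After median centring Wnt9a was at 0.00862 and Sfrp2 at 0.00880, and after quantile normalization Sfrp2 was at 0.00805 and Ctnnb1 at -0.00337. With 1 array left out, the range crossed 0 for Wnt2b (-0.0550 to 0.00201), Wnt3a (-0.0524 to 0.00478), Wnt6 (-0.0295 to 0.0591), Wnt8a (-0.0581 to 0.00110), Wnt8b (-0.0482 to 0.00513), Wnt9a (-0.0386 to 0.0221), Wnt11 (-0.0702 to 0.00212), Fzd3 (-0.0340 to 0.00319), Fzd5 (-0.0530 to 0.00903), Fzd8 (-0.0433 to 0.00554), Sfrp1 (-0.119 to 0.103), Sfrp2 (-0.0356 to 0.0379), Dkk2 (-0.000484 to 0.0428) and Ctnnb1 (-0.00344 to 0.0295).

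Signals near the level of olfactory receptor transcripts limit what can be seen for 7 members, and RMA compresses differences of dim transcripts. The 5 mice of a genotype allow a member interval with a median width of 0.22 on the log2 scale.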
